A study of Homo sapiens with 6 samples.

Results

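The locus described here is the gene-poor stretch of chromosome 8 that holds MYC and PVT1, read from 126.0 to 129.5 Mb of GRCh38. Its members are the ATAC-seq peaks with a midpoint between these bounds. Overlapping peaks of the 6 samples (1 bp or more) were joined, which gave 194 regions in the locus of 102784 in the genome. The rest of the long arm, taken as chromosome 8 beyond 45.2 Mb without the locus, held 4650 regions.

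The data are 6 samples of RKO, an established colon cancer cell line, profiled by ATAC-seq, in which a transposase inserts adapters where DNA is accessible. The 3 APH samples were treated with 0.2 µM aphidicolin for 16 h, an inhibitor of the replicative DNA polymerases, and the 3 DMSO samples with the solvent. The comparison asks how low replication stress bears on chromatin accessibility. The labels do not say whether the samples came from separate cultures, while the study speaks of independent experiments and biological replicates, so p-values measure the spread between these samples.

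MYC encodes a transcription factor that binds DNA as a partner of MAX and drives genes of growth, ribosome assembly and metabolism. PVT1, its neighbour, gives a long non-coding RNA, and its body holds elements that contact the MYC promoter. The gene desert around both holds enhancers that act in the intestinal epithelium and other tissues.

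The value of a peak is the deposited signal, the mean coverage of alignments extended to 200 bp over the peak. The study's methods describe no scaling to library size and the depth is unknown, so the values may carry differences in depth between samples. A corrected value was therefore used beside it. This is the log2 of the value plus 1 from which the sample's own trend with region strength was taken off. It was computed over the 50150 shared regions, those with a peak in every sample. The correction sets the typical region of each strength to the same level in every sample. It thus also takes off a treatment change shared by most regions of like strength, and a corrected difference is relative to the genome.

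Markers of cell type were read as peaks within 1 kb of a gene start, which show accessibility and not expression. Of the epithelial markers, EPCAM, KRT8 and KRT18 had a peak in all 6 samples, KRT8 and KRT18 through 1 shared region, and CDH1 had none. Of the intestinal markers, CDX2, a homeobox factor of the gut, and LGR5 had a peak in all 6 samples. KRT20 had one in 2 APH samples, and CDX1 and VIL1 had none. No peak was found at the leukocyte genes PTPRC and CD3E or the endothelial gene CDH5. PECAM1, another endothelial gene, was not read, since its strand was not known here. Of the fibroblast genes, COL1A1 and COL1A2 had a peak in all 6 samples and DCN had none.

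The number of locus peaks was 117, 143 and 119 in the 3 DMSO samples and 151, 155 and 122 in the 3 APH samples. The lowest APH sample lay below the highest DMSO sample, and the samples had 64511 to 84510 peaks in all. The locus held 0.178%, 0.185% and 0.184% of all peaks in DMSO and 0.189%, 0.183% and 0.174% in APH. The means were 0.182% ± 0.00419 and 0.182% ± 0.00768 (SD, n = 3; two-sided exact permutation test, p = 1). When only peaks no weaker than the median peak were counted, the locus held 0.181%, 0.192% and 0.193% in DMSO and 0.219%, 0.203% and 0.195% in APH. These did not overlap, APH being higher by 0.0167 percentage points (exact permutation test, p = 0.1). Of the peaks of the whole long arm beyond 45.2 Mb, the locus held 4.30%, 4.46% and 4.48% in DMSO and 4.19%, 4.06% and 3.89% in APH. The groups did not overlap, APH being lower, at 4.05% ± 0.147 against 4.42% ± 0.0980 (mean and SD, n = 3). The exact permutation p was 0.1, the smallest that 3 samples against 3 allow, and 0.4 after adjustment over 4 single-value comparisons. The difference of -0.368 percentage points was -0.0566 when only peaks at or above the median value were counted (exact permutation test, p = 0.7). With the locus 0.5 Mb shorter at each side it was -0.264 (exact permutation test, p = 0.2). Over the same samples the whole long arm held 4.13%, 4.15% and 4.11% of all peaks in DMSO and 4.52%, 4.52% and 4.47% in APH. The arm held a larger share in every APH sample than in any DMSO sample.

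**Figure D1:**
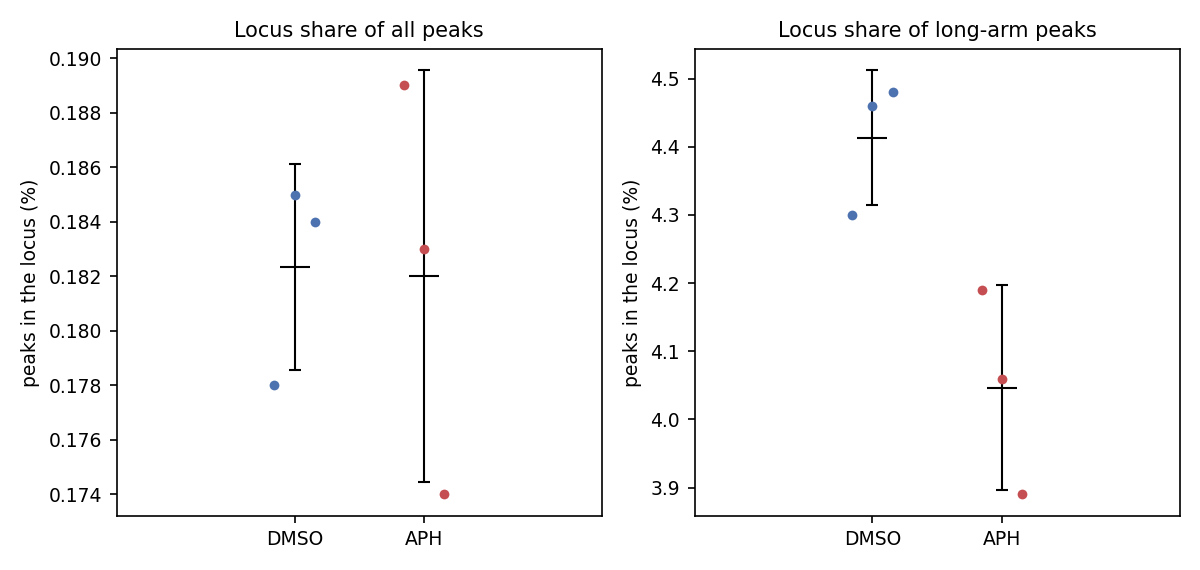
Peaks in the locus as a percentage of all peaks of the sample (left) and of the chromosome 8 peaks beyond 45.2 Mb (right). Points are samples, and bars are mean and SD over 3 samples; the axes do not start at 0. The DMSO and APH samples overlap on the left and separate on the right, at 4.30% to 4.48% and 3.89% to 4.19%.

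Of the 194 regions of the locus, 86 had a peak in all 6 samples, or 44.3%, against 41.8% in the rest of the long arm and 48.8% in the genome. A peak in APH samples only was found in 42 regions, or 21.6%, against 26.3% in the rest of the arm and 18.5% in the genome. A peak in DMSO samples only was found in 13, or 6.70%, against 6.90% and 7.03%. The stretch is poor in genes, with 44 genes of which 3 are protein-coding, LRATD2, POU5F1B and MYC, and 25 are long non-coding RNA genes.

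Regions within 1 kb of a gene start numbered 7, of which 6 had a peak in every sample. The MYC promoter region, chr8:127735049-127736461, holds the MYC start. Its peak value was 359, 359 and 388 in DMSO and 309, 334 and 346 in APH. As deposited the groups did not overlap, the mean being 369 ± 16.6 for DMSO and 330 ± 19.1 for APH (SD, n = 3). In limma across all shared regions the log2 difference was -0.16 ± 0.13 (SE), with an adjusted p of 0.637. After the correction the values were 8.51, 8.17 and 8.52 in DMSO and 8.43, 8.40 and 8.66 in APH, and the groups overlapped. Their difference was 0.10 (two-sided exact permutation test, n = 3, p = 0.6; adjusted p = 1). The sign at the MYC promoter thus differed between the scales. The median difference of all 13514 shared promoter regions was -0.23 as deposited and -0.08 after the correction. Among shared regions of protein-coding promoters, the MYC region ranked between percentiles 92.4 and 98.2 by value, depending on the sample.

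The PVT1 promoter region, chr8:127793742-127795543, was the wider of the 2 at 1802 bp and the weaker in signal. Its value was 170, 145 and 190 in DMSO and 132, 134 and 169 in APH. The groups overlapped, with means of 168 ± 22.5 and 145 ± 20.4 (SD, n = 3; limma adjusted p = 0.594). Corrected values of 7.43, 6.97 and 7.51 in DMSO and 7.18, 7.10 and 7.54 in APH also overlapped, with a difference of -0.03 (exact permutation test, p = 1; adjusted p = 1). With 1 sample left out this difference ranged from -0.196, without DMSO replicate 2, to 0.0701, without DMSO replicate 3, so its sign was not stable. It was -0.183 with each sample centred on its median. Across samples the PVT1 region ranked between percentiles 49.8 and 70.2 of the same promoters. In every sample it was below the MYC region.

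CASC11 is a non-coding gene that starts beside MYC on the other strand, and its start region is chr8:127734008-127734413. It had values of 344, 449 and 380 in DMSO and 334, 354 and 329 in APH, and overlapped in the corrected values with a difference of 0.06. The sign turned with the scale, at -0.198 as deposited (log2) and -0.17 with each sample centred on its median. Its values were in the range of the MYC region, with means of 391 ± 53.0 and 339 ± 13.1 (SD, n = 3).

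LRATD2, a protein-coding gene, lies more than 1 Mb before MYC. Its start region, chr8:126558060-126558773, had values of 252, 235 and 282 in DMSO and 172, 195 and 217 in APH. The deposited values did not overlap and had the smallest unadjusted p of the locus in the lower direction. The log2 difference was -0.39 ± 0.14 (SE; limma adjusted p = 0.296), and the corrected difference of -0.16 came from groups that overlapped. With 1 sample left out the corrected difference ranged from -0.277 to -0.0794. With each sample centred on its median the difference was -0.366. The PRNCR1 start region, chr8:127080719-127081223, also near 1 end of PCAT2, had 102, 134 and 88.5 in DMSO and 115, 157 and 101 in APH, and overlapped. The start region of LINC02912, chr8:127949586-127950109, lies inside the PVT1 gene. It had 114, 139 and 116 in DMSO and 115, 136 and 135 in APH. This was the promoter region of the locus whose corrected values did not overlap, with APH higher by 0.24, and by 0.09 with each sample centred on its median. CCAT2 had a weak peak in 1 DMSO sample at 36.3 and 1 APH sample at 22.5. POU5F1B and PCAT1 had no region at their start. Of the 44 genes, 25 had a known strand, and starts were read for these. Regions near an end of CCAT1, CASC21 or other genes without one were kept as distal.

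**Figure D2:**
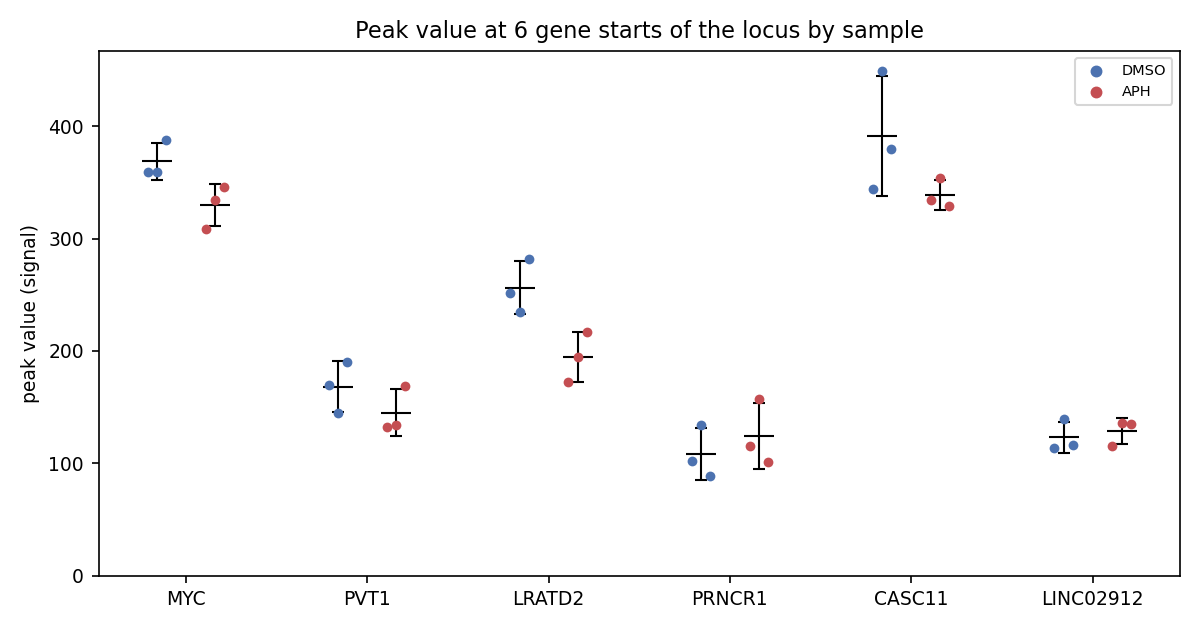
Deposited peak value of each sample at the 6 gene starts of the locus with a peak in all samples. Points are samples and bars are mean and SD over 3 samples. MYC and CASC11 are the strongest, and the APH and DMSO points separate at MYC and LRATD2 on this scale.

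Distal regions numbered 187, of which 80 had a peak in every sample. The strongest lay mostly after MYC. Of the 10 with the highest mean over all samples, 4 were inside the PVT1 gene, 3 beyond it, 1 at the MYC end and 2 before MYC. The strongest of all, chr8:127851253-127852520 in PVT1, lay 116 kb from the MYC start. Its values were 407, 519 and 442 in DMSO and 479, 529 and 431 in APH, with means of 456 ± 57.5 and 480 ± 48.9 (SD, n = 3). They overlapped as deposited (limma adjusted p = 0.880) and separated after the correction, where APH was higher by 0.32, and by 0.10 with each sample centred on its median instead. The next, chr8:127831492-127832033, also in PVT1, had 425, 581 and 421 in DMSO and 445, 426 and 339 in APH. It overlapped on both scales, with a corrected difference of 0.01. The difference was -0.231 as deposited (log2) and -0.204 with median centring. On corrected values it ranged from -0.0768 to 0.0749 with 1 sample left out. Both had a higher mean than the MYC promoter region, at 468 and 440 against 349.

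Another pair of strong regions stood beyond PVT1. At chr8:128176515-128177350 the values were 426, 474 and 391 in DMSO and 406, 423 and 331 in APH, and overlapped on both scales. At chr8:128183072-128183662 they were 343, 465 and 321 in DMSO and 413, 456 and 329 in APH, and the deposited values overlapped and the corrected values separated, with APH higher by 0.34, and by 0.12 with median centring. Of the other 6, only chr8:127742946-127743384, at the end of MYC, separated after the correction. It had 229, 291 and 240 in DMSO and 293, 313 and 219 in APH, and a corrected difference of 0.35, which was 0.14 with median centring. The remaining 5 overlapped after the correction. These were chr8:127339979-127340508 in CASC8 and CASC21, chr8:127907353-127908295 and chr8:127969339-127969868 in PVT1, chr8:128127252-128128255 beyond it, and chr8:126556300-126557071 in LRATD2. Their corrected differences ranged from 0.07 to 0.17. The sign turned with the scale in all 5, with log2 differences from -0.17 to -0.08 as deposited and from -0.14 to -0.05 with median centring.

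**Figure D3:**
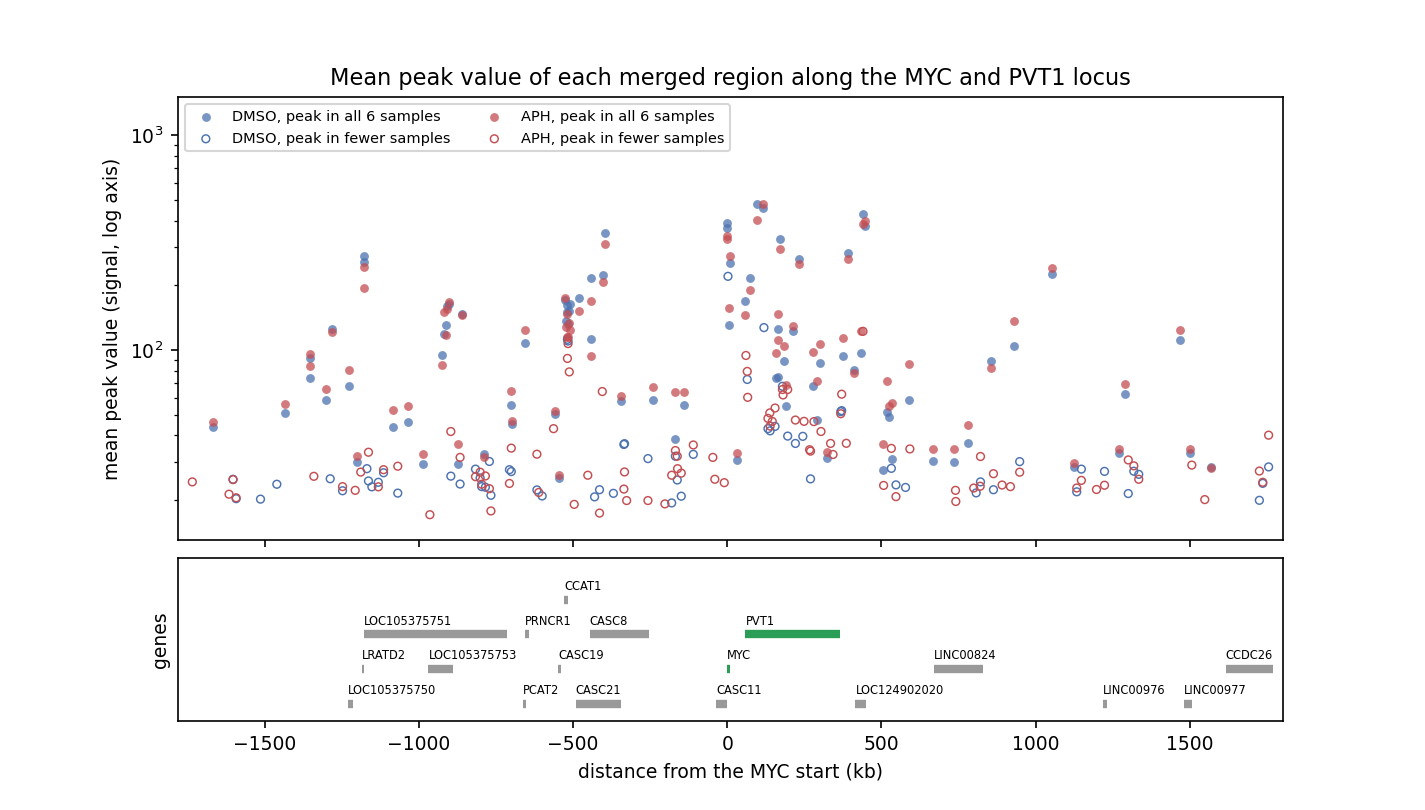
Mean peak value of each region (log axis) against the distance of its midpoint from the MYC start, for DMSO and APH, with gene spans below. Filled points have a peak in all 6 samples and open points in fewer. Most of the strongest regions lie from the MYC start to 448 kb after it, and those with a peak in fewer samples are mostly weak.

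No region of the locus passed the test between conditions with the samples taken as unpaired. In limma on the deposited values over 50150 shared regions, none had an adjusted p below 0.05 in either direction (0% of all tested), and none of the 86 in the locus did. At an unadjusted p below 0.05, 7 of the 86 were higher in APH, where the genome had 2.46%, and 4 were lower, where it had 10.1%. In the rest of the long arm 160 of 1946 were higher and 113 lower. On corrected values the counts at an unadjusted p below 0.05 were 19 higher and 0 lower in the locus, 329 and 31 in the rest of the arm, and 2918 and 2289 in the genome. The share of higher regions among those below 0.05 in the genome moved from 19.6% to 56.0% with the correction, and to 38.6% with median centring alone.

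The smallest unadjusted p in the higher direction belonged to 3 distal regions. At chr8:127898356-127898708, in PVT1, the values were 73.8, 66.4 and 83.7 in DMSO and 113, 98.8 and 121 in APH. The groups did not overlap on either scale, with a log2 difference of 0.57 ± 0.17 (SE; limma adjusted p = 0.290). At chr8:127565001-127565391, 170 kb before MYC and outside genes, they were 28.0, 51.5 and 35.9 in DMSO and 65.9, 72 and 53.4 in APH. This region had the largest corrected difference of the locus, 0.72, and its groups did not overlap (limma adjusted p = 0.291). At chr8:128014664-128015036, in PVT1, they were 60.9, 73.1 and 69.8 in DMSO and 104, 98.6 and 90.2 in APH, again without overlap (log2 difference 0.52 ± 0.17, SE; limma adjusted p = 0.292). In the lower direction, after LRATD2, came a pair of regions near CCAT1, a non-coding gene known for its transcription in colon cancer. At chr8:127215994-127216596, inside CCAT1, the values were 146, 155 and 147 in DMSO and 117, 118 and 110 in APH, below DMSO on both scales (log2 difference -0.37 ± 0.14, SE; limma adjusted p = 0.302). At chr8:127225044-127225433 they were 158, 187 and 143 in DMSO and 138, 125 and 110 in APH, separated as deposited and overlapping after the correction (limma adjusted p = 0.322).

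Regions with a peak in all 3 samples of one condition and none of the other numbered 4. In APH these were chr8:127330191-127330755 in CASC8 and CASC21, with values of 68.0, 61.6 and 62.4, chr8:127688689-127689007, with 39.3, 29.4 and 26.1, and chr8:128016479-128016795 in PVT1, with 46.9, 49.3 and 42.9. In DMSO it was chr8:126448626-126448892, with 23.8, 25.6 and 26.0. Such regions in DMSO numbered 4 of 4650 in the rest of the arm and 189 of 102784 in the genome. The 3 APH regions were 1.55% of the regions of the locus, against 1.57% in the rest of the arm and 1.11% in the genome. A missing peak is a value below the threshold of the caller and not a value of 0.

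Read on corrected values, all APH samples lay above all DMSO samples in 20 of the 86 regions, or 23.3%, where the genome had 8.61%. They lay below in 1, or 1.16%, where the genome had 7.48%. The rest of the long arm had 19.6% above and 2.88% below, so the locus stood close to the arm it lies on. The median corrected difference was 0.14 in the locus, 0.12 in the rest of the arm and -0.01 in the genome. On the deposited values 7 of the 86 were above and 5 below, where the genome had 4.21% and 14.4%. With each sample centred on its median 17 were above and 7 below, where the genome had 9.09% and 11.4%.

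The median corrected value of the 86 regions was 6.35, 6.62 and 6.37 in DMSO and 6.82, 6.75 and 6.63 in APH. The groups did not overlap, though DMSO replicate 2 at 6.62 and APH replicate 3 at 6.63 were almost level. After the median of the rest of the long arm was taken off, the values were 0.32, 0.51 and 0.39 in DMSO and 0.61, 0.54 and 0.51 in APH. The means were 0.41 ± 0.10 and 0.56 ± 0.05 (SD, n = 3), and again these 2 samples met, at 0.511 and 0.513. The gap of 0.15 was 0.05 with the mean over regions in place of the median, and 0.08 with median centring in place of the correction, and the groups then overlapped in both cases. The median of the differences of single regions, another measure, was 0.144 in the locus and 0.115 in the rest of the arm. DMSO replicate 2 was the highest of the DMSO samples in 49 of the 86 regions and APH replicate 3 the lowest of the APH samples in 58. In the rest of the arm these were 795 and 879 of 1946 regions, and in the genome 19255 and 19707 of 50150. At an unadjusted p below 0.05, limma had 19 locus regions higher without DMSO replicate 2 and 14 without APH replicate 3, in place of 7. The genome moved the same way, with 3828 and 2863 higher in place of 1235, and so did the rest of the arm, with 367 and 287 in place of 160. In the locus it had 3 without DMSO replicate 1, 5 without DMSO replicate 3, 4 without APH replicate 1 and 3 without APH replicate 2. None had an adjusted p below 0.05 in any of these fits.

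Promoter regions had a higher level than distal regions in every sample. The median corrected value of the 6 shared promoter regions was 7.70, 7.31 and 7.77 in DMSO and 7.39, 7.47 and 7.73 in APH. That of the 80 distal regions was 6.22, 6.55 and 6.30 in DMSO and 6.57, 6.62 and 6.49 in APH. Both overlapped. Of the promoter regions 1 of 6 was above in all APH samples, beside 8.25% of those in the rest of the arm and 4.82% in the genome. Of the distal regions 19 of 80 were above, or 23.8%, beside 21.7% in the rest of the arm and 10% in the genome.

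Along the locus the regions fell into 4 stretches. On corrected values, 3 of 43 shared regions before MYC were above in all APH samples and 1 was below. Between the MYC and PVT1 starts 2 of 4 were above. In the PVT1 gene 10 of 16 were above and 0 below, and beyond PVT1 5 of 23 were above and 0 below. As shares above, these are 6.98%, 50%, 62.5% and 21.7%, beside 8.61% in the genome and 19.6% in the rest of the arm, so the share beyond PVT1 was near that of the arm. The median corrected difference over the regions of each stretch was 0.08, 0.22, 0.33 and 0.16 in that order, beside 0.12 for the rest of the arm. The counts depended on the scale. On deposited values 1 was above and 4 below before MYC, 0 above and 1 below from MYC to PVT1, 5 above and 0 below in PVT1, and 1 above and 0 below beyond it. With median centring these were 4 and 4, 1 and 0, 8 and 2, and 4 and 1. Quantile normalization gave the counts of the corrected values. The median difference of each stretch was above 0 on all 4 scales, but its size and the order of the stretches depended on the scale. As deposited the medians were 0.022, 0.103, 0.159 and 0.177, beside 0.061 for the rest of the arm. With median centring they were 0.050, 0.131, 0.187 and 0.204, beside 0.088. On both of these scales the stretch beyond PVT1 had the largest median, and not the PVT1 gene.

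By sample, the median corrected value of the PVT1 regions was 6.58, 6.74 and 6.61 in DMSO and 6.99, 6.93 and 7.12 in APH. The groups did not overlap, with means of 6.64 ± 0.09 and 7.01 ± 0.10 (SD, n = 3). Relative to the rest of the long arm, a measure added after the data were seen, the values were 0.55, 0.63 and 0.63 in DMSO and 0.78, 0.72 and 1.01 in APH. The groups did not overlap here either, with means of 0.60 ± 0.05 and 0.84 ± 0.15 (SD, n = 3). Before MYC the relative values were 0.66, 0.61 and 0.51 in DMSO and 0.40, 0.68 and 0.46 in APH, and overlapped. From MYC to PVT1, over 4 regions, they were 1.35, 1.34 and 1.39 in DMSO and 1.69, 1.72 and 1.44 in APH, without overlap. Beyond PVT1 they were -0.27, 0.07 and -0.36 in DMSO and 0.09, 0.14 and -0.23 in APH, with overlap. No p is given for these medians, since 3 samples against 3 cannot go below 0.1 and the stretches were chosen with earlier results known. The difference between stretches was not tested.

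**Figure D4:**
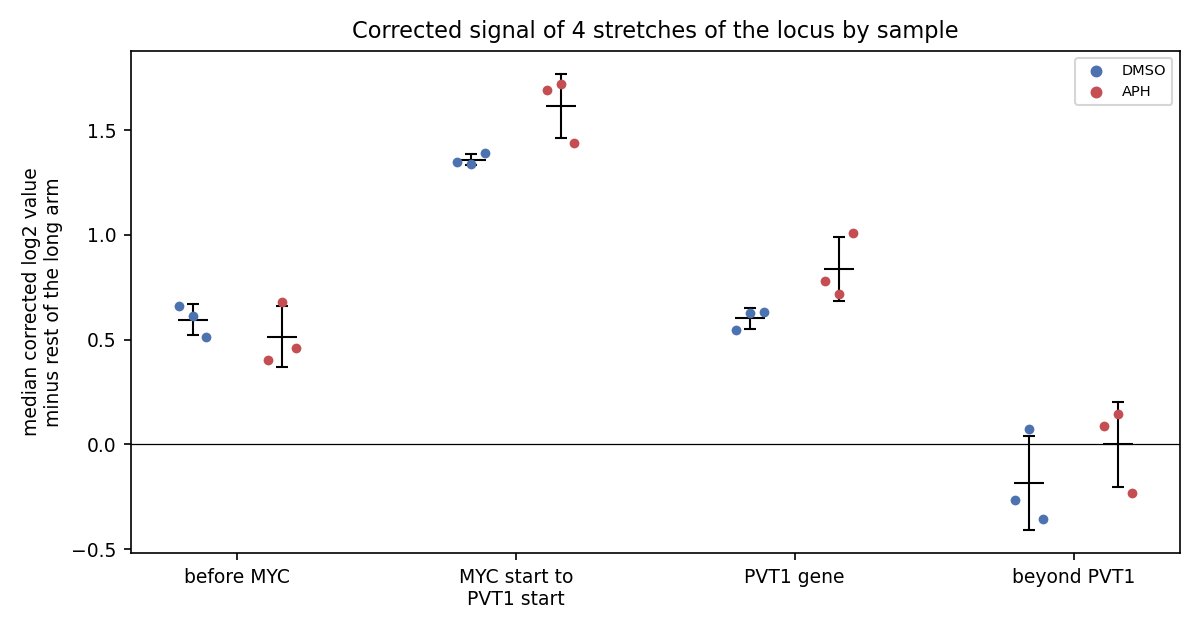
Median corrected log2 value of the shared regions of 4 stretches of the locus, minus the median of the rest of the long arm, by sample. Points are samples and bars are mean and SD over 3 samples. APH lies above DMSO without overlap from MYC to PVT1 and in the PVT1 gene, and the groups overlap before MYC and beyond PVT1.

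Within PVT1 the 6 regions that overlapped after the correction were its promoter, 4 strong regions with means over all samples of 204, 440, 311 and 258, and 1 weak region at 32.4. The 10 that did not overlap included the strongest region of the locus, at 468. The other 9 had means from 59.5 to 135. Their corrected differences ranged from 0.24 to 0.65. Around MYC itself, both regions at the end of the gene overlapped as deposited and were above in all APH samples after the correction. At chr8:127741615-127742421 the values were 121, 143 and 127 in DMSO and 158, 184 and 128 in APH, with a corrected difference of 0.43, set against 0.10 at the promoter.

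The region around CCAT1, CASC21 and CASC8, known for its enhancers in the intestinal epithelium, had 5 shared regions in CCAT1 and 6 in CASC21. None of these was above in all APH samples after the correction, where the genome had 8.61% and the rest of the arm 19.6%. So few regions cannot tell none from the share of the genome. The region at chr8:127215994-127216596 in CCAT1 was the 1 region of the locus below in all APH samples after the correction. Their corrected differences ranged from -0.22 to 0.26, with medians of 0.04 and 0.05.

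**Figure D5:**
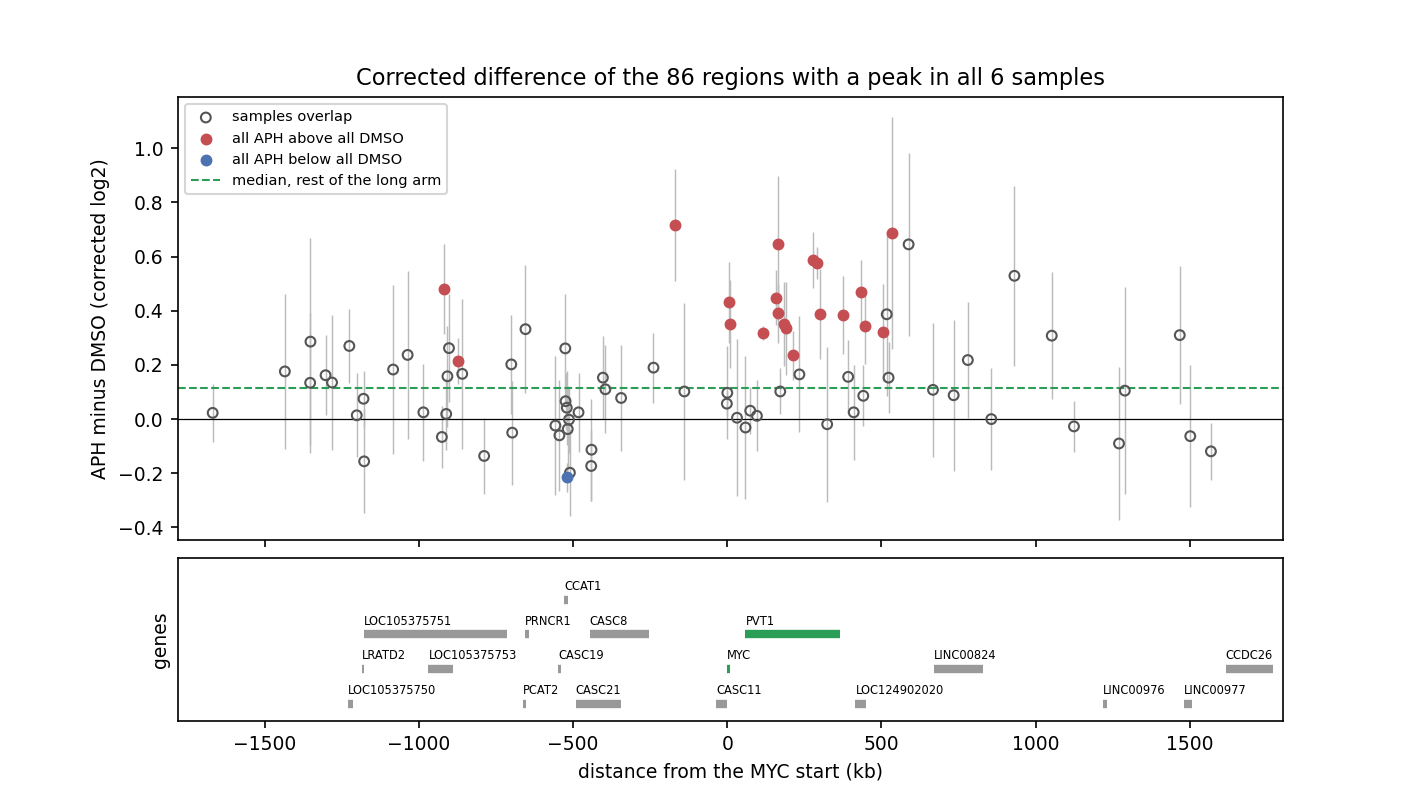
Corrected log2 difference, APH minus DMSO, of the 86 shared regions against distance from the MYC start. Bars are the pooled SD within groups, filled points do not overlap between groups, and the dashed line is the median of the rest of the long arm, 0.12. Filled red points lie mostly from the MYC start to 534 kb after it.

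The same regions were also counted in windows of 0.5 Mb, on corrected values. From 127.0 to 127.5 Mb, 0 of 19 shared regions were above in all APH samples. From 127.5 to 128.0 Mb, which holds MYC and the first part of PVT1, 10 of 19 were above, and from 128.0 to 128.5 Mb, which holds the end of PVT1 and the stretch after it, 8 of 17. The last 2 shares ranked 2 and 6 among 85 windows of the long arm with at least 10 shared regions. That from 127.0 to 127.5 Mb ranked 80, and that from 126.5 to 127.0 Mb, with 2 of 15 above, ranked 54. From 126.0 to 126.5 Mb 0 of 6 were above. From 128.5 to 129.5 Mb none of 10 was above. By median corrected difference the windows from 127.5 to 128.0 Mb and from 128.0 to 128.5 Mb had 0.24 and 0.34, ranked 11 and 2. Those from 126.5 to 127.0 Mb and from 127.0 to 127.5 Mb had 0.158 and 0.025, ranked 36 and 78. The number of peaks in the PVT1 gene was 23, 23 and 22 in DMSO and 25, 31 and 25 in APH. As shares of all peaks of the sample, a measure added after the data were seen, these were 0.0349%, 0.0298% and 0.0341% in DMSO and 0.0313%, 0.0367% and 0.0357% in APH, and overlapped. From MYC to PVT1 the numbers of peaks, 5, 6 and 6 in DMSO and 4, 5 and 4 in APH, overlapped. As a share of all peaks this stretch was lower in every APH sample than in any DMSO sample. The shares of the other stretches overlapped. In limma over 4098 windows of the genome, 1 window had an adjusted p below 0.05 for its share of peaks, or 0.0244%, and none of the 7 in the locus did. Their log2 differences ranged from -0.23 to 0.19, with adjusted p from 0.577 to 0.981.

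The partners of MYC were read at their starts. Of 12 genes of the MYC network, 11 had a shared promoter region, MGA having none, and no region passed the limma test. The median log2 difference was -0.18, beside -0.23 over all 13514 shared promoter regions, and 2 had an unadjusted p below 0.05, both lower, beside 3828 lower of 13514. MXD4, a repressor that competes with MYC for MAX, had 374, 345 and 410 in DMSO and 259, 238 and 335 in APH (log2 difference -0.45 ± 0.15, SE; limma adjusted p = 0.291). These groups did not overlap as deposited and overlapped after the correction. At the other end stood MLX, at -0.03 ± 0.16. MAX had 269, 282 and 322 in DMSO and 255, 263 and 258 in APH, separated as deposited and overlapping after the correction.

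Of 25 genes known as targets of MYC, 24 had a shared promoter region, and none passed the limma test. The median log2 difference was -0.31, beside the -0.23 of all shared promoters, and 12 of the 24 had an unadjusted p below 0.05, all lower, against 3828 of 13514 among all. On corrected values the median was -0.12, against -0.08. NOP56, a part of the small nucleolar ribonucleoproteins, had the largest difference in the lower direction. Its values were 205, 173 and 215 in DMSO and 142, 119 and 159 in APH, without overlap as deposited and with overlap after the correction (log2 difference -0.50 ± 0.15, SE; limma adjusted p = 0.290). CDK4, a kinase of the cell cycle, was at the other end. Its values were 230, 288 and 252 in DMSO and 278, 294 and 232 in APH, and overlapped (log2 difference 0.06 ± 0.14, SE; limma adjusted p = 0.669). After the correction they did not overlap, with a difference of 0.30, and CDK4 was the 1 target above in all APH samples. Below were 3, CCND2 at -0.15, PPAN at -0.16 and EIF4A1 at -0.23. Of all 13514 shared promoter regions 651 were above and 1412 below. TERT, the catalytic subunit of telomerase, had a peak at its start in 1 sample of each condition.

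Among 10855 shared promoter regions of protein-coding genes outside chromosome 8, the 3 most like the MYC promoter region over the 6 samples were those of EIF4E2 with TIGD1, CASK and ATL3. Pearson r on log2 values was 0.998, 0.998 and 0.995. A value above 0.9 was reached by 1349 regions, or 12.4%, and all share the same 6 libraries and their depth, so the likeness is a description of these samples.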

How the data were processed

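Peak lists of 6 RKO samples were used, each holding the position of every peak and 1 signal value. The authors called peaks per sample, and the deposited signal averages a coverage map in 32-nt bins across each peak. The study's methods describe no scaling to library size. BWA 0.7.12, MACS2 2.1.0 and hg38 are named in the submitters' processing notes. Genes came from the RefSeq annotation of GRCh38.p14. Strand came from RefSeq promoter entries by gene identifier and otherwise from GENCODE by name, for 47670 of 59679 genes. The RefSeq promoter entries held none on chromosome 8, so the strands known in the locus came from GENCODE. Exons and introns were not used here. Where a region held several peaks of 1 sample, their values were averaged by length.

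Shared regions were compared with limma on log2 of the value plus 1, with an intensity trend and Benjamini-Hochberg adjustment. Windows of 0.5 Mb with a mean of at least 5 peaks were compared in the same way on log2 of peaks plus 1 per 100000. The correction took off a running median over 100 groups of region strength. Single values were compared by two-sided exact permutation.

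Regions named were those within 1 kb of a gene start, the 10 strongest distal regions, the 3 of smallest p in each direction, and those with a peak in all samples of 1 condition and none of the other. The members and lists were chosen with earlier results of these data known. The region at chr8:127741615-127742421 and the regions within PVT1, CCAT1 and CASC21 were described after their values were seen. 1 marker list is not reported here. Fits were tested on simulated data. Python 3.11.15, numpy 2.4.6, pandas 2.3.3, scipy 1.17.1, matplotlib 3.10.9, R 4.3.3 and limma 3.58.1 were used.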

Additional observations from a re-analysis of the deposited data

How the results depend on the processing

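The depth of the libraries is unknown, 3 samples a group limit the tests, and a factor on all values of a sample passes into the deposited scale. The locus share of long-arm peaks and the gap between the locus and the rest of the arm kept their direction under all settings run. So did the corrected differences of the locus, its distal regions, the PVT1 gene stretch and the other stretches after the MYC start. The size of the gap between locus and arm was less stable, at 0.148 in the sample medians and 0.049 with the mean over regions. The medians of the differences of single regions lay close, at 0.144 in the locus and 0.115 in the rest of the arm. On deposited values the median difference of the locus was 0.08, and -0.03 without APH replicate 2. The other 5 results followed this way changed direction. Among single regions, not counted here, the PVT1 promoter region turned with 1 sample left out. The CASC11 start region and several strong distal regions turned with median centring. The locus share of all peaks differed by -0.000249 percentage points, and by 0.0167 with peaks at or above the median value (exact permutation p = 0.1), 0.00517 with an equal number of peaks, 0.00504 by covered length and 0.00206 with the locus 0.5 Mb shorter at each side. It ranged from -0.00375 to 0.00386 with 1 sample left out. The mean locus peak value differed by -8.72, by 0.0777 (log2) relative to all peaks, by 0.0776 (log2) relative to long-arm peaks, and by 0.979 with the median. The MYC promoter region differed by -0.13 with median centring, and from -0.0169 to 0.155 with 1 sample left out, the lowest without DMSO replicate 2. Before MYC the difference between groups in the sample medians was 0.0563, and -0.0284 with median centring. It was -0.0806 relative to the rest of the arm (chosen after the data were seen), and from -0.044 to 0.117 with 1 sample left out. The median of the differences of single regions, given for the stretches above, is another measure. Before MYC it was 0.050 with median centring. For promoter regions the difference in the sample medians was -0.0623, and -0.238 with median centring. It ranged from -0.205 to 0.0263 with 1 sample left out. The median of the corrected differences of single promoter regions was 0.077. The cause was not tested.

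Regions called in the genome numbered 0, 1 with median centring and 0 to 3 with 1 sample left out, the 3 without DMSO replicate 2. Windows called numbered 1, 0 with windows of 1 Mb, 0 with an equal number of peaks and 0 to 3 with 1 sample left out. None was in the locus.

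The replicate numbers were not taken as pairs, since pairing was not established. Deviations of same-numbered samples correlated at -0.00665, 0.477 and 0.515, and not every sample correlated best with its own number. With the replicate block limma called 6604 regions, 1021 higher in APH and 5583 lower. In the locus it called 12 regions, 8 higher and 4 lower. It called 50 windows, 0 of them in the locus. With the correction and the replicate block, a setting chosen after the data were seen, it called 1811 regions, 1146 higher and 665 lower. In the locus 16 were higher and 0 lower. At an unadjusted p below 0.05, limma with the block on deposited values had 17 higher and 8 lower of 86 locus regions. The rest of the arm had 363 and 245 of 1946, and the genome 3553 and 10564 of 50150. With the correction these counts were 29 and 1, 501 and 75, and 5243 and 5026.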

Other observations

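Narrow peaks, of at most 300 bp, had higher values in PVT1 than in the genome, in a comparison made after the data were seen. Their median value in the PVT1 gene was 56.0, 57.5 and 61.4 in DMSO and 56.8, 46.8 and 46.1 in APH, from 7 to 13 peaks per sample. In the genome it was 25.8, 27.1 and 26.5 in DMSO and 26.6, 27.0 and 26.1 in APH. Before MYC it was 24.8 to 28.2, and beyond PVT1 21.6 to 27.0. The lowest peak value of any sample was 41.4 from 127.8 to 127.9 Mb, 36.7 from 127.9 to 128.0 Mb, 25.1 from 128.0 to 128.1 Mb and 36.0 from 128.1 to 128.2 Mb, the last almost wholly beyond PVT1. These stood at the 97.5, 96.5, 84.9 and 96.3 percentiles of 14979 bins of 100 kb with at least 10 peaks over all samples, whose median was 20.8. From 127.2 to 127.3 Mb, around CCAT1, the lowest DMSO peak was 104 and the lowest APH peak 19.1. The lowest APH values were a peak of 19.1 in APH replicate 2 and one of 26.1 in APH replicate 1, each in a region found in that sample alone. The other APH peaks below 104 had values from 73.3 to 95.8. What sets these lowest values was not tested.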
